A study of Capra hircus with 198 samples.

Results

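The genes described here are 42 members of the complement and coagulation cascades of the goat, given as a list of names. Of these, 41 are rows of the count table, which holds 39734 features, and C8G is not analysed here. They were followed over 33 tissues of 6 adult female Murciano-Granadina goats, a dairy breed, with 1 total RNA library per goat and tissue. The lactating animals are goats 2, 3 and 6 and the dry animals goats 54, 64 and 73, which gives 3 lactating and 3 dry libraries in each tissue. The same 6 animals stand behind every tissue, and lactation cannot be told apart from any other way in which these 2 sets of goats differed. Levels are in CPM, counts scaled by the total of each library with its long noncoding RNAs (lncRNAs) included, and they are given as mean ± SD over goats. Gene lengths were not used, so a level of 1 gene is compared between tissues or states and not with the level of another gene.

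Complement and coagulation are protease cascades of blood plasma. In complement, antibody, microbial sugars or spontaneous turnover lead to the cleavage of C3 and then C5, and the terminal components C5b to C9 build a pore in the target membrane. In coagulation, tissue factor starts a chain of clotting factors that ends with thrombin, which turns fibrinogen into fibrin, while antithrombin and protein C limit the chain and plasmin dissolves the clot. Hepatocytes of the liver are known to secrete most of these proteins, whereas macrophages make C1q, endothelial cells and megakaryocytes make von Willebrand factor, and myeloid cells make properdin.

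Library totals lay between 1.31 and 8.97 M counts (median 4.63 M), between 4.06 and 4.73 M in liver and between 4.4 and 5.12 M in mammary gland. A floor of 3 counts, which covers counting error only, equals 2.292 CPM at the smallest of these totals and 0.335 CPM at the largest. By whole profile, 159 libraries were closest to their own tissue and 39 to another tissue, among them the 3 lactating pineal libraries but no liver or mammary library. The neck skin library of goat 3 was closest to diaphragm and that of goat 6 to subcutaneous fat. Albumin (ALB), the defining hepatocyte product, averaged 17882 CPM in liver, and its highest mean elsewhere was 4.92 CPM in subcutaneous fat, 0.0275% of the liver mean. The summed level of 6 hepatocyte marker genes was 5059 CPM in the liver of goat 3 and 18639 CPM or more in the other 5 livers. The summed level of 6 milk protein genes ran from 19612 to 56232 CPM in the mammary glands of the lactating goats and from 0 to 7.81 CPM in those of the dry goats.

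The first question was which tissues hold the transcripts of these genes besides the liver. Liver had the highest mean for 30 of the 41 genes, against 6.44% of all 31305 features that averaged 1 CPM or more in some tissue. For 27 genes every liver library lay above all 192 libraries of other tissues. Liver held at least 50% of the sum of the 33 tissue means for 24 genes and at least 90% for 10. Tau, a score of tissue specificity that is 0 when all tissues are equal and 1 when only 1 tissue has the transcript, had a median of 0.849 over the 41 genes and of 0.441 over those 31305 features. In bulk tissue, fewer cells of a type and less RNA per cell cannot be told apart, so a low level says nothing of which of these holds.

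**Figure D1:**
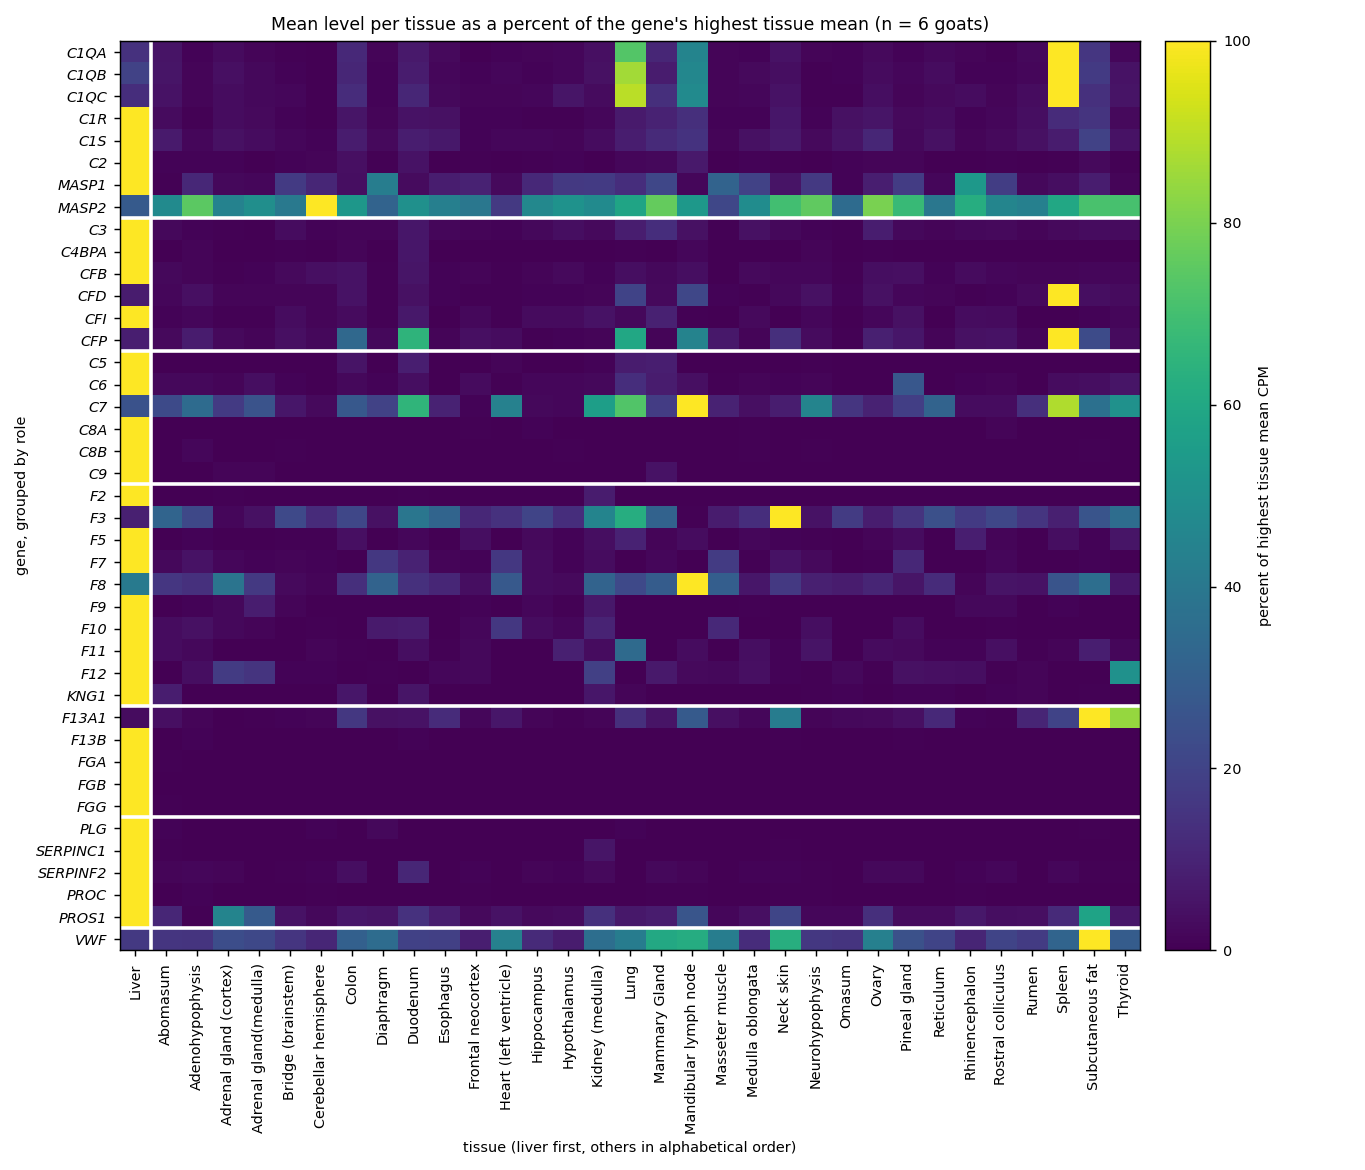
Mean CPM of each gene (rows, grouped by role) in each tissue (columns, liver first), as a percent of that gene's highest tissue mean over 6 goats. Most rows are bright in liver only, while C1QA, C1QB, C1QC, CFD and CFP peak in spleen, C7 and F8 in lymph node, F13A1 and VWF in subcutaneous fat, F3 in neck skin, and MASP2 is high throughout.

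With limma on log2 CPM and the goat as unit, 35 of the 41 genes were higher in liver than in the mean of the other 32 tissues, where 14.6% of all 31306 features tested were higher. One gene, MASP2, was lower, where 25.4% of features were. C7, CFP, F3, F13A1 and VWF did not pass the Benjamini-Hochberg threshold of 0.05. The median log2 difference was 5.78 over the 41 genes and -0.20 over all features. These differences carry a prior count of 2, which understates the change of genes near 0 outside liver. The mean of the other tissues is a mean of log2 CPM, in which a few high tissues weigh less than in a plain mean. The differences are therefore not ratios of plain mean CPM. C8A, C8B, F13B, FGB and PROC averaged 1 CPM in no other tissue, so they entered this test through liver alone. Counts from this test are therefore a description.

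Genes of the classical and lectin start of complement differed in their highest tissue, which was spleen for the C1q chains, cerebellar hemisphere for MASP2 and liver for the others. C1q, the antibody-binding recognition molecule, has chains encoded by C1QA, C1QB and C1QC. C1QA had 7.97, 13.9 and 17.5 CPM as the lowest, median and highest liver library, against 27.7, 101 and 142 CPM in spleen. All liver libraries were below all spleen libraries for C1QA, and after spleen lung (69.3 ± 21.3 CPM) and mandibular lymph node (42.7 ± 31.2 CPM) came next. C1QB averaged 13.1 ± 4.23 CPM in liver and 66.2 ± 30.7 CPM in spleen, and C1QC 2.71 ± 1.61 CPM in liver and 20.9 ± 8.93 CPM in spleen. Across the 33 tissue means the C1q chains ranked the tissues alike, with Spearman correlations of 0.892 to 0.898 over tissues that share libraries and goats. Liver nevertheless exceeded the mean of the other 32 tissues for C1QA (log2 difference 2.36, SE 0.20, adjusted p = 6.07e-07 with limma) and C1QC (1.31, SE 0.31, adjusted p = 0.00408).

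C1R and C1S encode the proteases carried by C1q. C1R had a lowest, median and highest level of 53.3, 96.3 and 111 CPM in liver, and its next tissue, subcutaneous fat, reached 24.3 CPM in its highest library. The liver difference was 5.26 for C1R (SE 0.18, adjusted p = 4.1e-11 with limma) and 4.57 for C1S (SE 0.18, adjusted p = 2.45e-10). Liver held 45.1% of the summed tissue means of C1R and 37.6% of those of C1S, and subcutaneous fat and mandibular lymph node had the next highest means of both. C2, the protease of the classical C3 convertase, had 36.9, 55.3 and 85.6 CPM in liver against at most 7.39 CPM in any other library (log2 difference 6.17, SE 0.19, adjusted p = 1.8e-11).

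MASP1 and MASP2 encode proteases of the lectin pathway, which senses microbial sugars. MASP1 averaged 22 ± 7.09 CPM in liver, 11.7 ± 6.96 CPM in rhinencephalon and 9.32 ± 2.01 CPM in diaphragm, and 2 libraries outside liver exceeded the lowest liver library. MASP2 was the exception among all 41 genes: liver ranked 31 of 33 at 122 ± 17 CPM, and cerebellar hemisphere was highest at 434 ± 37.1 CPM. The liver difference of MASP2 was -0.82 (SE 0.10, adjusted p = 2.32e-05 with limma), and it was lower in liver than in all 8 tissues set against liver one by one. Its level was never below 72.5 CPM as a tissue mean, and its tau was 0.119. Whether its counts include reads of other transcripts of this region was not tested.

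The convertase and alternative pathway genes were led by liver, except for both that encode the activators factor D and properdin. C3, the component on which all complement pathways meet, had 566, 712 and 1510 CPM as its lowest, median and highest liver level. Its next tissues were mammary gland (112 ± 95.5 CPM), ovary (69.1 ± 40.5 CPM), lung (67.8 ± 20.8 CPM) and duodenum (53 ± 21 CPM), and no library of any tissue was at 0. C3 thus stood 7.58-fold higher in liver than in mammary gland, with a log2 difference of 5.78 from the mean of the other tissues (SE 0.22, adjusted p = 1.45e-10 with limma).

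CFB, the protease of the alternative C3 convertase, had 249, 443 and 506 CPM in liver and averaged 22.9 ± 6.88 CPM in duodenum and 19.6 ± 11.2 CPM in colon (log2 difference from the 32 tissues 5.85, SE 0.18, adjusted p = 1.39e-11). CFI, which cuts C3b and C4b, had 164, 250 and 290 CPM in liver and 22.7 ± 20.7 CPM in mammary gland (log2 difference 6.36, SE 0.21, adjusted p = 3.49e-11). CFI overlaps another gene in the RefSeq annotation, and their reads cannot be told apart. C4BPA, the main chain of the C4b-binding inhibitor, had 57.2, 100 and 130 CPM in liver, and liver held 85.8% of its summed tissue means. Duodenum followed with 5.89 ± 6.07 CPM, where 3 libraries were near 11 CPM and the others below 1 CPM (log2 difference of liver 7.24, SE 0.20, adjusted p = 4.33e-12).

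CFD encodes factor D, the protease that activates factor B. It had 13.4, 17.9 and 22.7 CPM in liver, against 70.7, 244 and 355 CPM in spleen, and the ranges did not overlap. Mandibular lymph node and lung averaged 50.4 ± 47.9 and 47.7 ± 18.3 CPM. On the log2 scale CFD still exceeded the mean of the other 32 tissues in liver (1.94, SE 0.16, adjusted p = 3.75e-07 with limma), and the median tissue mean outside liver was 3.44 CPM. CFP, the gene of properdin, averaged 0.692 ± 0.661 CPM in liver, 8.33 ± 3.38 CPM in spleen and 5.41 ± 3.28 CPM in duodenum (liver difference 0.14, SE 0.34, adjusted p = 0.79).

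Among the terminal components, C8A, C8B and C9 had at least 90% of their summed tissue means in liver, C5 73.5%, C6 50.7% and C7 2.85%. C8A and C8B, encoding chains of C8, had tissue means under 1 CPM in all 32 other tissues, and their highest single libraries reached 2.4 and 3.09 CPM there. In liver C8A ran from 36.9 to 74.2 CPM and C8B from 23.8 to 60.1 CPM. C9, which polymerises into the pore, ran from 149 to 314 CPM in liver, and liver held 90.5% of its summed tissue means. Besides mammary gland, described below, C9 reached a mean of 1 CPM only in the adrenal cortex (3.25 ± 1.7 CPM) and the adrenal medulla (3.09 ± 3.36 CPM). The liver difference was 8.38 for C9 (SE 0.17, adjusted p = 1.62e-13 with limma), 6.86 for C8A (SE 0.19, adjusted p = 6e-12) and 6.27 for C8B (SE 0.23, adjusted p = 1.01e-10).

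C5, whose cleavage starts pore assembly, had 157, 457 and 526 CPM in liver. Outside liver it averaged 35.3 ± 28.9 CPM in duodenum, 34.1 ± 50.9 CPM in mammary gland, 31.4 ± 4.93 CPM in lung and 22 ± 13.8 CPM in colon. Of these, lung was the even one, with all 6 libraries between 23.2 and 36.4 CPM, while duodenum and mammary gland each had a library at 0. The liver difference of C5 was 8.24 (SE 0.24, adjusted p = 9.27e-12). C6 had 37.9, 61.6 and 82.9 CPM in liver and averaged 16.5 ± 14.1 CPM in pineal gland and 7.81 ± 4.01 CPM in lung (liver difference 5.64, SE 0.20, adjusted p = 6.55e-11).

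C7 ranked 14 in liver, at 7.17 ± 5.73 CPM. Mandibular lymph node (28.3 ± 10 CPM), spleen (25 ± 16.5 CPM), lung (20.6 ± 10.7 CPM) and duodenum (18.5 ± 11 CPM) were higher in mean, and 26 tissues besides liver had a mean of at least 1 CPM. The liver difference of C7 was 0.60 (SE 0.42, adjusted p = 0.286 with limma). C6 and C7 therefore had unlike tissue profiles, with a Spearman correlation of 0.478 over 33 tissues that share goats.

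**Figure D2:**
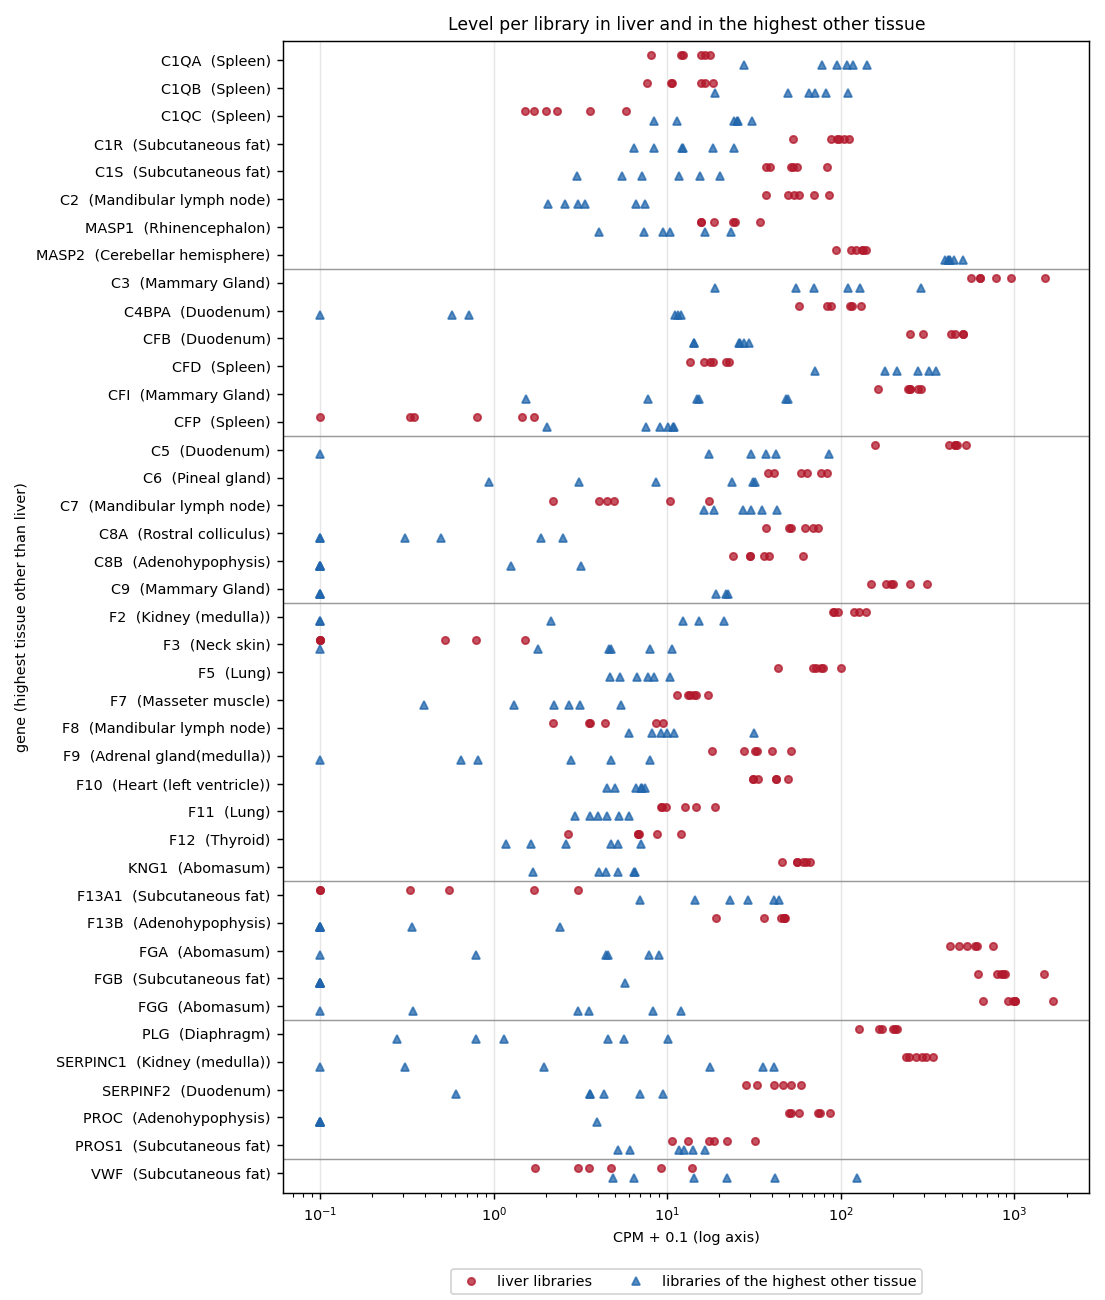
Level per library on a log axis (CPM + 0.1) in the 6 liver libraries (circles) and in the 6 libraries of the highest other tissue, named in parentheses (triangles), with lines between the role groups. Circles and triangles are separate for the fibrinogen genes, with every liver library at 425 CPM or more, and every triangle lies above every circle for C1QA, C1QB, C1QC, CFD, CFP, F13A1 and MASP2.

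Most clotting factors were liver genes with small second sites. Prothrombin (F2) had 90.1, 107 and 139 CPM in liver, and kidney medulla was the only other tissue with a mean of at least 1 CPM, at 8.41 ± 8.97 CPM (log2 difference of liver from all others 7.66, SE 0.15, adjusted p = 1.35e-13 with limma). Kininogen (KNG1), a cofactor of contact activation, had 45.5, 58.1 and 66 CPM in liver and averaged between 3 and 5 CPM in abomasum, colon, kidney medulla and duodenum (log2 difference 6.41, SE 0.15, adjusted p = 1.01e-12). Factor V (F5), the cofactor of factor X, had 43.4, 74.3 and 100.1 CPM in liver and averaged 7.09 ± 2.07 CPM in lung and 6.18 ± 1.72 CPM in rhinencephalon (log2 difference 6.09, SE 0.20, adjusted p = 2.9e-11).

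The vitamin K-dependent factors VII and X had their second sites in striated muscle. F10 averaged 38.2 ± 7.52 CPM in liver, 6.2 ± 1.22 CPM in heart and 4.35 ± 3.63 CPM in masseter. F7 averaged 13.9 ± 1.93 CPM in liver and between 2 and 3 CPM in masseter, diaphragm and heart. Over 33 tissue means F7 and F10 correlated with a Spearman coefficient of 0.813, or 0.794 without liver, across tissues that share goats. F9 averaged 33.7 ± 11.5 CPM in liver and 2.75 ± 3.06 CPM in adrenal medulla, and it overlaps other genes in the RefSeq annotation. F11 averaged 12.3 ± 3.81 CPM in liver and 4.27 ± 1.12 CPM in lung, and its highest lung library (5.91 CPM) lay below its lowest liver library (9.14 CPM).

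Factor XII, factor VIII and tissue factor stood closest to or below the other tissues. F12 averaged 7.19 ± 3.02 CPM in liver and 3.63 ± 2.29 CPM in thyroid, and their libraries overlapped (liver difference 3.65, SE 0.32, adjusted p = 6.71e-07 with limma). F8, the cofactor of factor IX, averaged 5.2 ± 2.98 CPM in liver, 12.6 ± 9.52 CPM in mandibular lymph node and 4.87 ± 1.51 CPM in adrenal cortex, and liver exceeded the mean of the other tissues by 1.56 on the log2 scale (SE 0.34, adjusted p = 0.002). F3, which encodes tissue factor, the membrane protein that starts coagulation, averaged 0.421 ± 0.562 CPM in liver, 4.88 ± 3.9 CPM in neck skin and 3.04 ± 1.3 CPM in lung (liver difference -0.60, SE 0.35, adjusted p = 0.193), which passed without goat 2 (-0.88, adjusted p = 0.0353).

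Fibrinogen, the precursor of the clot, showed the largest liver differences of all members. FGB had 617, 849 and 1480 CPM in liver, FGG 663, 999 and 1660 CPM and FGA 425, 564 and 756 CPM. Of the 192 other libraries, 172 held no FGB read, and liver held 99.7% of the summed tissue means of FGB. The liver difference was 10.91 for FGB (SE 0.17, adjusted p = 1.27e-14 with limma), 10.58 for FGG (SE 0.17, adjusted p = 2.02e-14) and 10.13 for FGA (SE 0.13, adjusted p = 3.84e-15). Abomasum was the next tissue for FGA (4.36 ± 3.59 CPM) and FGG (4.45 ± 4.68 CPM), but not for FGB, and FGG also averaged 4.08 ± 1.98 CPM in kidney medulla and 3.17 ± 2.34 CPM in adrenal cortex.

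Factor XIII, which crosslinks fibrin, was divided between tissues. F13B, its carrier subunit, had 18.9, 45.9 and 47.4 CPM in liver and no tissue mean of 1 CPM elsewhere (log2 difference 6.40, SE 0.25, adjusted p = 1.55e-10 with limma). F13A1, its catalytic subunit, had 0, 0.342 and 2.96 CPM in liver, against 6.85, 26 and 44.2 CPM in subcutaneous fat, and the ranges did not overlap. Thyroid (22.2 ± 12.1 CPM) and neck skin (11.1 ± 7.09 CPM) followed fat for F13A1, and its liver difference was -0.67 (SE 0.48, adjusted p = 0.302).

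Inhibitors and the fibrinolytic zymogen were liver genes, with protein S as the most widespread. Antithrombin (SERPINC1), which blocks thrombin and factor Xa, had 237, 283 and 341 CPM in liver and averaged 16.1 ± 18.6 CPM in kidney medulla (log2 difference of liver from all others 8.60, SE 0.14, adjusted p = 2.02e-14 with limma). Plasminogen (PLG) had 126, 185 and 212 CPM in liver and averaged 3.65 ± 3.79 CPM in diaphragm (7.96, SE 0.15, adjusted p = 6.27e-14). Protein C (PROC), which inactivates the factor V and VIII cofactors, had 50.2, 65.3 and 86.9 CPM in liver and no mean of 1 CPM elsewhere (6.97, SE 0.18, adjusted p = 2.39e-12).

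SERPINF2, the plasmin inhibitor, averaged 43.2 ± 11.4 CPM in liver and 4.66 ± 3.07 CPM in duodenum (log2 difference 5.87, SE 0.20, adjusted p = 5.05e-11). PROS1, which encodes protein S, the cofactor of protein C, averaged 18.9 ± 7.6 CPM in liver, 10.9 ± 4.49 CPM in subcutaneous fat and 8.56 ± 2.2 CPM in adrenal cortex, and 7 libraries outside liver exceeded its lowest liver library (log2 difference 3.66, SE 0.26, adjusted p = 1.05e-07).

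Von Willebrand factor (VWF), which tethers platelets and carries factor VIII, was spread over all tissues. It ranked 22 in liver at 5.93 ± 4.62 CPM, against 35.4 ± 45.3 CPM in subcutaneous fat, 22.3 ± 24.8 CPM in neck skin, 21.9 ± 17.2 CPM in lymph node and 21.3 ± 14.4 CPM in mammary gland. The SDs are as large as the means in fat and skin, and these tissues do not stand apart from each other beyond their spread. The liver difference of VWF was -0.43 (SE 0.42, adjusted p = 0.453 with limma).

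Liver was also set against 8 tissues one by one with edgeR: spleen, mandibular lymph node, subcutaneous fat, lung, ovary, adrenal cortex, mammary gland and frontal neocortex. Of 302 tests on the members, 254 (84.1%) were higher in liver, where 18.6% of all tests on features were, and 28 (9.27%) were lower, where 15.5% were. Genes at or near 0 in the other tissue entered these tests through their liver counts alone, so these counts are a description. C1QA was higher in liver than 3 tissues and lower than 3, C1QB 4 and 3, and CFD 4 and 3. F13A1 was lower in 3 of 3 tissues tested, C1QC in 3 of 4, C7 in 2 of 7 and VWF in 2 of 8.

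Other genes of these pathways, listed by name, followed the liver pattern in part. Of 24 complement regulators, receptors and related genes, 13 were higher in liver than in the mean of the other tissues and 2 were lower, where 14.6% of all features were higher and 25.4% lower. Vitronectin (VTN, a terminal pathway inhibitor, log2 difference 8.52) and C1 inhibitor (SERPING1, 6.22) were among the higher, and the scavenger receptor COLEC12 (-2.19) and the receptor C5AR2 (-0.71) were the lower. Of 31 further coagulation genes, 16 were higher, among them the plasma glycoprotein HRG (8.28) and the inhibitor SERPINA5 (7.46), and 6 were lower, among them thrombomodulin (THBD, -1.53) and the protein C receptor (PROCR, -0.92), both endothelial surface proteins.

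The second question was whether lactating and dry goats differed, first in the mammary gland. Of 17 members with enough counts to test with edgeR, 2 were higher in lactating glands, C9 and C5, and none was lower. Of all 18214 features tested there, 1.05% were called in either direction and 0.873% were higher. C9 and C5 passed the count filter through the lactating libraries alone, and C9 was known from earlier results of these data. The count of 2 is therefore a description. At an unadjusted p under 0.05 edgeR had 4 members, all higher in lactating glands, where 12.4% of features were at that level. DESeq2 gave an adjusted p for 23 members and called 4, C5, C9, MASP1 and VWF, where it called 3.35% of features.

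C9 had 22.2, 21.8 and 19.1 CPM in the glands of lactating goats 2, 3 and 6, against 0 in each of the 3 dry glands. These are 99, 96 and 86 counts in lactating glands, against no count in any dry gland. C9 averaged 21.0 ± 1.70 CPM in lactating glands (SD, n = 3) and was at least 101-fold higher than a floor of 3 counts over the 3 dry libraries together, which equals 0.208 CPM. The fitted log2 difference was 9.66 (SE 0.77, adjusted p = 0.00467 with edgeR), with the difference present in 3 of 3 lactating goats. Leaving out each goat in turn kept the call, with adjusted p from 0.00212 to 0.0429. The exact two-sided permutation test gave p = 0.1, the smallest that 3 against 3 allows. The lactating mammary mean of C9 was 9.77% of the liver mean over all goats and 12% of that of lactating livers.

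C5 had 125, 13.6 and 63.2 CPM in the lactating glands of goats 2, 3 and 6, against 0.41, 1.56 and 0 CPM in the dry glands of goats 54, 64 and 73. The groups did not overlap, but lactating goats differed among themselves by far more than for C9. The log2 difference was 6.73 (SE 1.11, adjusted p = 0.0317 with edgeR), and the call was lost without goat 2 (adjusted p = 0.132), goat 6 (0.111), goat 64 (0.0683) or goat 73 (0.16).

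No terminal gene besides C9 and C5 was called in the gland with edgeR or DESeq2. C8A and C8B, whose products join the pore ahead of C9, had no count in any of the 6 mammary libraries, and neither had F10, F13B, FGA and KNG1, which allows at most 0.108 CPM as 3 counts over the 6 libraries. C6 had 10.3, 1.19 and 12 CPM in lactating glands, against 0, 0.195 and 4.07 CPM in dry glands, and overlapped. C7 had 3.36, 1.14 and 4.66 CPM in lactating glands, against 1.64, 9.57 and 9.95 CPM in dry glands. C3 had 109, 69.6 and 290 CPM in lactating glands, against 18.8, 128 and 55.4 CPM in dry glands, and overlapped as well.

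MASP1 had 14, 6.14 and 5.1 CPM in lactating glands, against 0, 0.402 and 2.28 CPM in dry glands, without overlap but with an adjusted p of 0.223 with edgeR and 0.0225 with DESeq2. VWF averaged 32.4 ± 11.1 CPM in lactating glands and 10.3 ± 5.57 CPM in dry glands (log2 difference 1.77, adjusted p = 0.143 with edgeR and 0.0209 with DESeq2). None of 11 other complement genes and none of 19 other coagulation genes tested in the gland was called with edgeR.

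Hepatocyte markers were at or near 0 in the gland beside the C9 result. The sum of the 6 hepatocyte genes in the table was 2.02 to 2.73 CPM in lactating glands and 0 to 1.56 CPM in dry glands, APOB was at 0 in all 6 and the lowest liver library summed to 5059 CPM. The summed level of 6 mammary epithelium markers was 236 to 294 CPM in lactating glands and 21.8 (goat 54) to 162 CPM in dry glands, that of 7 macrophage markers 51.0 to 82.1 and 47.5 to 52.3 CPM in lactating and dry glands, and that of 8 endothelial markers 59.9 to 104 and 39.3 to 81.5 CPM. Adipocyte markers summed to 44 to 61.7 CPM in lactating and 10 to 16.1 CPM in dry glands. The astrocyte list summed to 10.1 to 16.8 CPM in lactating and 18.8 to 28.1 CPM in dry glands. It reached 181 to 350 CPM in the livers, so it does not mark astrocytes alone. The hepatocyte, epithelium, adipocyte and astrocyte sums did not overlap between the states, and the macrophage and endothelial sums did. The part of cell content in the C9 and C5 values was not tested.

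**Figure D3:**
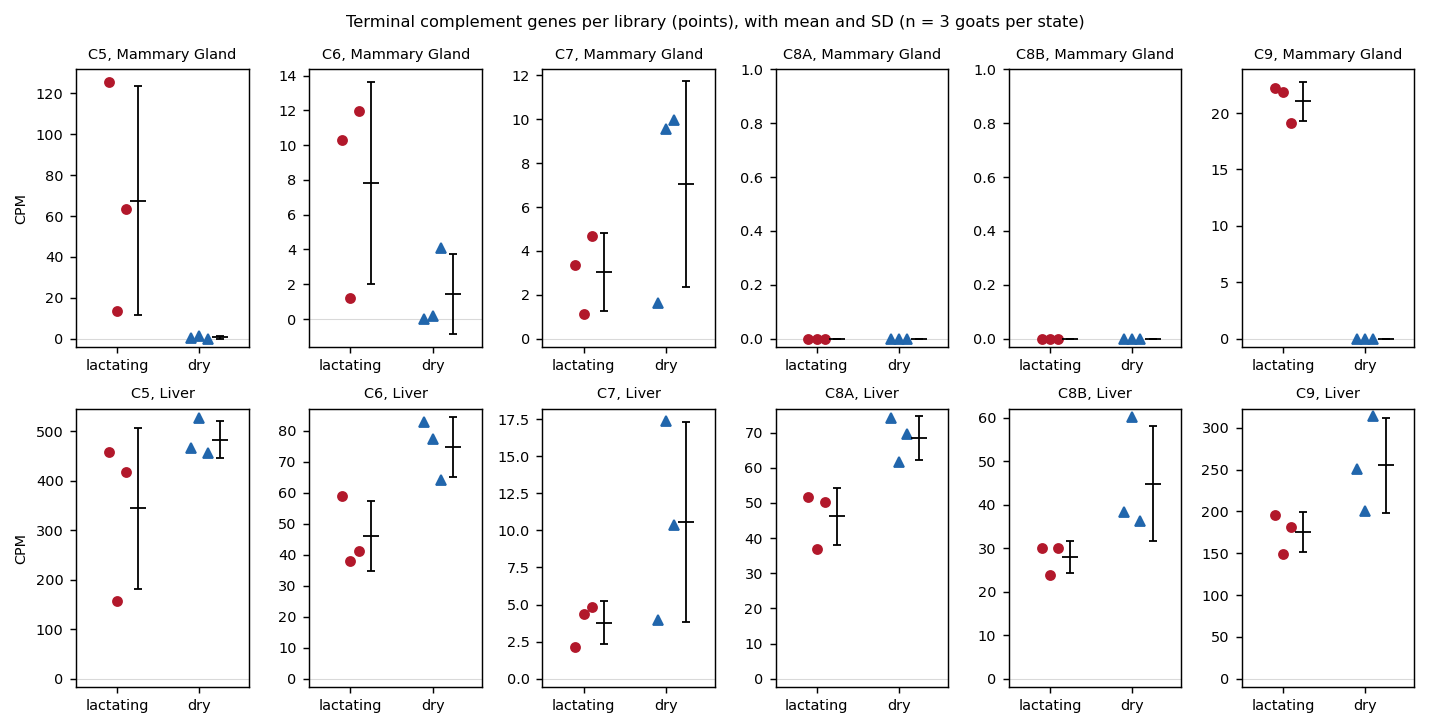
CPM per library of the terminal complement genes in mammary gland (top) and liver (bottom), in lactating and dry goats, with the mean and SD of 3 goats per state. In the gland C9 lies between 19.1 and 22.2 CPM in lactating goats and at 0 in dry goats, C8A and C8B are at 0 throughout, and in the liver the dry goats are the higher for C6, C8A, C8B and C9.

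The C9 difference was larger in the mammary gland than over the rest of the body. C9 had no count in 132 of the 192 libraries outside liver, and its body-wide difference was -0.04 (SE 0.10 with limma). A contrast with the other tissues therefore largely restates the difference within the gland. Set against each goat's mean over the other 32 tissues, the mammary effect on C9 was 5.71 on the log2 scale (SE 0.33, adjusted p = 0.0141 with limma), where 0.125% of 31306 features were called. C5 had a similar size but a wider error (5.92, SE 1, adjusted p = 0.146), and C9 was the only member called. Without any 1 of the 6 goats the C9 difference was 5.61 to 5.77, and the call was lost each time. The adjusted p was 0.0578, 0.0818 and 0.0926 when lactating goat 2, 3 or 6 was left out and 0.125, 0.153 and 0.235 when dry goat 54, 64 or 73 was.

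In the liver itself no member was called between lactating and dry goats, of 37 tested with edgeR, where 1.43% of 17027 features were called, and DESeq2 called no member, where it called 4.14% of features. At an unadjusted p under 0.05, where 13.4% of features were, edgeR had 7 members, of which C6, C7, C8A, C8B, C9 and CFB had the lower mean in lactating livers and F2 the higher. DESeq2 had 6 at that level. C9 had 196, 149 and 182 CPM in lactating livers, against 251, 200 and 314 CPM in dry livers (log2 difference -0.55, SE 0.22, adjusted p = 0.288). C6 had 59, 37.9 and 41.1 CPM in lactating livers, against 82.9, 77.3 and 64.1 CPM in dry livers (-0.72, SE 0.25, adjusted p = 0.216). F2 had 127, 118 and 139 CPM in lactating livers, against 91.3, 96.1 and 90.1 CPM in dry livers (0.45, SE 0.20, adjusted p = 0.339).

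None of these differences passed the adjusted threshold. Lactating and dry livers did not overlap for C6, C8A, C8B, C9 and F2, and overlapped for C7 and CFB. The hepatocyte marker sum was also lower in each lactating liver (5059 to 19984 CPM) than in each dry liver (21938 to 26887 CPM). This sum is mostly ALB, which averaged 17882 CPM in liver, so it is no even measure of hepatocyte content. Its part in these values was not tested. In liver, every lactating library lay above every dry one for 1 of the 41 members and below for 9. Over all pairs of a feature and a tissue where it averaged 1 CPM or more, 12% had every lactating library above and 7.22% every dry library above. These shares pool all 33 tissues, and a share for liver alone is not given here, so the counts are a description. Of all features called in liver, 95 were higher and 148 lower in lactating goats.

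In the other 31 tissues, 345 tests on members gave 8 higher and 10 lower in lactating goats with edgeR. That is 5.22% of tests, where 1.94% of 543012 tests on features were called. Some of these pairs were too low in 1 state to pass the count filter there and entered through the other state alone. Among them are F2, F10 and SERPINC1 in kidney medulla, F5 in colon, PLG in diaphragm, and CFI and PROS1 in ovary. The count of calls is therefore a description. The calls fell in 8 tissues, with 4 each in kidney medulla and ovary. The 2 states did not overlap in any of these 18, but these pairs were chosen by their call, so this is a description. Among all pairs of a feature and a tissue where it averaged 1 CPM or more, 12% had every lactating library above. Every dry library was above in 7.22%. With C9 and C5 of the gland there were 20 calls, of which 9 kept the call without each goat in turn. Of 11 cell type marker lists, the summed levels of the states did not overlap for 7 in colon and kidney medulla, 6 in pineal gland, 4 in ovary and diaphragm, 3 in heart and masseter and 1 in lung.

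In kidney medulla 3 genes of the thrombin step were lower in lactating goats, and 15.1% of all features tested were called there. F2 had 0, 2.05 and 0 CPM in the lactating goats, against 21.1, 12.2 and 15.2 CPM in the dry goats (log2 difference -4.78, SE 0.80, adjusted p = 0.00169 with edgeR). F10, whose product activates prothrombin, had 0, 1.64 and 0 CPM in the lactating goats, against 7.22, 8.07 and 6.25 CPM in the dry goats (-3.93, SE 0.91, adjusted p = 0.0116). SERPINC1 had 1.86, 0 and 0.21 CPM in the lactating goats, against 41.4, 17.4 and 35.5 CPM in the dry goats (-5.89, SE 0.66, adjusted p = 0.000107). All 3 genes were lower in lactating goats with no overlap and kept the call without each goat. Their values ran from -9.50 without goat 3 to -4.20 for F2, from -8.34 without goat 3 to -3.35 for F10, and from -8.21 without goat 2 to -5.34 for SERPINC1. These genes passed the count filter through the dry libraries alone, so the calls and the lack of overlap are a description.

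The kidney samples also differed in their segment markers. The summed level of 7 proximal tubule markers was 78.2, 312 and 97.6 CPM in the lactating goats, against 2628, 1269 and 1856 CPM in the dry goats. That of 7 loop and collecting duct markers was 364, 1250 and 858 CPM in the lactating goats, against 152, 119 and 139 CPM in the dry goats. Both lists were chosen after these values were seen, and neither overlapped between the states. The hepatocyte sum was 1.84 to 3.78 CPM in the lactating goats and 6.19 to 17.7 CPM in the dry goats. The part of the dissected segment in the 3 differences, and in that of VWF in kidney medulla given below, was not tested.

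Among the other coagulation genes in kidney medulla, TFPI, the tissue factor pathway inhibitor, averaged 24.9 CPM in lactating and 1.04 CPM in dry goats, and PLAT, the plasminogen activator, 20.9 and 1.82 CPM in lactating and dry goats. Both were called higher (adjusted p = 0.000589 and 0.00137 with edgeR). SERPINA10, the inhibitor that acts with protein Z, averaged 9.58 CPM in lactating and 29 CPM in dry goats and was called lower (adjusted p = 0.00229).

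**Figure D4:**
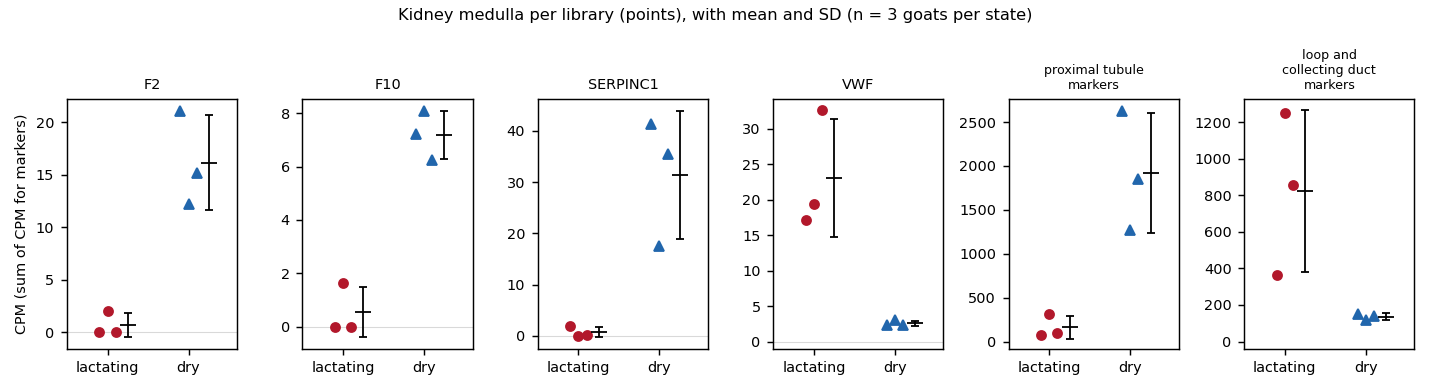
CPM per library in kidney medulla of lactating and dry goats for F2, F10, SERPINC1 and VWF, and the summed CPM of proximal tubule and of loop and collecting duct markers, with the mean and SD of 3 goats per state. F2, F10, SERPINC1 and the proximal tubule sum are lower in each lactating goat than in each dry goat, and VWF and the loop and collecting duct sum are higher.

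VWF was higher in lactating goats in 5 tissues, the most of any member. In kidney medulla it had 17.2, 19.4 and 32.6 CPM in the lactating goats, against 2.34, 3 and 2.32 CPM in the dry goats (log2 difference 2.81, SE 0.39, adjusted p = 0.000421 with edgeR). In masseter it had 21.5, 34.1 and 23.5 CPM in the lactating goats, against 4.22, 3.7 and 2.6 CPM in the dry goats (2.35, SE 0.31, adjusted p = 0.00292). In heart it had 19.9, 29.7 and 25.7 CPM in the lactating goats, against 5.78, 6.41 and 5.69 CPM in the dry goats (1.79, SE 0.26, adjusted p = 0.00186). These 3 calls held without each goat, and 15.1% of features were called in kidney medulla, 1.54% in masseter and 2.87% in heart.

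In diaphragm VWF had 24.3, 12.7 and 28 CPM in the lactating goats, against 0.872, 5.67 and 3.73 CPM in the dry goats (2.48, SE 0.50, adjusted p = 0.0211). In ovary it had 20.4, 29.3 and 24.5 CPM in the lactating goats, against 4.68, 3.29 and 10 CPM in the dry goats (1.67, SE 0.43, adjusted p = 0.0414). The diaphragm call was lost without goats 2, 6, 54 or 73 in turn (adjusted p up to 0.0689), and the ovary call without goats 2, 3, 6, 54 or 64 (up to 0.153). The share of features called was 2.33% in diaphragm and 11.7% in ovary.

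Over all 33 tissues VWF had the higher mean in lactating goats in 24. Every lactating library lay above every dry one in 14 tissues and below in 1, where the shares over all pairs of a feature and a tissue were 12% and 7.22%. The summed level of 8 endothelial markers was also higher in each lactating goat than in each dry goat in diaphragm (50.6 to 59.5 CPM in lactating and 20.9 to 31.1 CPM in dry goats) and masseter (43.1 to 82.6 CPM in lactating and 23.0 to 33.5 CPM in dry goats). It overlapped in heart (43.5 to 59.3 CPM in lactating and 22.1 to 45.6 CPM in dry goats), kidney medulla (75.4 to 98.6 CPM in lactating and 52.9 to 84.4 CPM in dry goats) and ovary (48.6 to 60.3 CPM in lactating and 32.7 to 50.7 CPM in dry goats). The part of endothelial content in the VWF differences was not tested.

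C7 was lower in lactating goats in heart and lung, and 1.74% of features were called in lung. In heart it had 0.872, 6.32 and 3.98 CPM in the lactating goats, against 23.5, 19.7 and 20.5 CPM in the dry goats (log2 difference -2.86, SE 0.42, adjusted p = 0.00236 with edgeR), and the call held without each goat. In lung it had 7.84, 15.2 and 11 CPM in the lactating goats, against 27.5, 34.5 and 27.6 CPM in the dry goats (-1.58, SE 0.29, adjusted p = 0.0157), and the call was lost without goat 6 (adjusted p = 0.0546) or goat 64 (0.0842). Fibroblast markers summed to 35.5 to 51.5 CPM in lactating and 79.5 to 98.1 CPM in dry hearts, and to 77 to 84.6 CPM in lactating and 75.6 to 289 CPM in dry lungs. Macrophage markers were 19.6 to 24.5 CPM in lactating and 8.03 to 12 CPM in dry hearts. The part of these cells in the C7 values was not tested.

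C1QB in lung had 28.4, 44.1 and 43.9 CPM in the lactating goats, against 76.9, 95.4 and 53.8 CPM in the dry goats (log2 difference -1.15, SE 0.25, adjusted p = 0.0365 with edgeR). The call was lost without goats 2, 3, 6, 54 or 64 in turn (adjusted p up to 0.165), and the macrophage marker sum overlapped in lung, at 203 to 298 CPM in lactating and 189 to 312 CPM in dry goats.

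**Figure D5:**
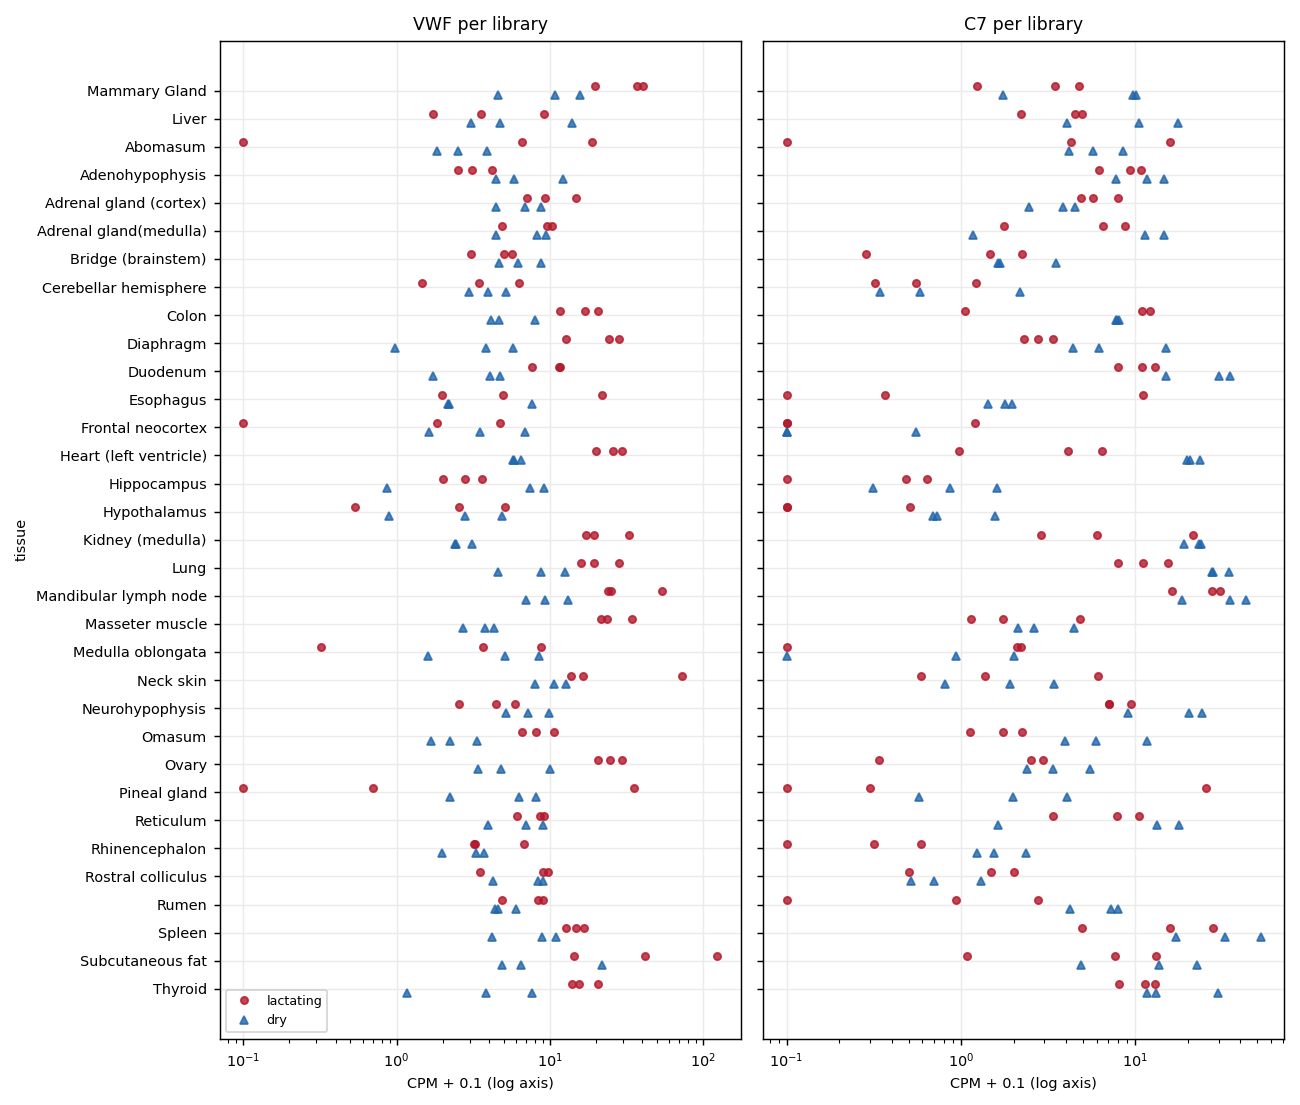
CPM + 0.1 per library on a log axis for VWF (left) and C7 (right) in all 33 tissues (rows), with lactating goats as circles and dry goats as triangles. VWF circles lie to the right of all triangles in 14 tissues, and C7 circles lie to the left of all triangles in 6 of the 27 tissues where C7 averaged 1 CPM or more, heart and lung among them, where 7.22% of all such pairs did.

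In ovary, where 11.7% of features were called, CFD had 18.7, 19.3 and 19.2 CPM in the lactating goats, against 1.08, 2.77 and 1.25 CPM in the dry goats (log2 difference 3.06, SE 0.40, adjusted p = 0.00381 with edgeR), and the call held without each goat. CFI had 0.949, 0.477 and 0.874 CPM in the lactating goats, against 10.4, 10 and 3.96 CPM in the dry goats (-3.67, SE 0.58, adjusted p = 0.00755), and the call was lost without goat 3 (adjusted p = 0.0544) or goat 6 (0.0519). PROS1 had 0.949, 0.716 and 1.31 CPM in the lactating goats, against 4.32, 3.98 and 3.96 CPM in the dry goats (-2.34, SE 0.53, adjusted p = 0.027), and the call was lost without goats 2, 3, 6, 54 or 64 (up to 0.13) and without the low count filter (0.0526).

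The ovaries differed in their markers as well. The summed level of 5 luteal and theca markers, a list chosen after these values were seen, was 17.1 to 26.4 CPM in lactating and 10 to 12.8 CPM in dry ovaries, and that of 6 epithelial markers 8.31 to 18.7 CPM in lactating and 40.6 to 168 CPM in dry ovaries. Macrophage markers were 59.4 to 84.7 CPM in lactating and 25.2 to 42.7 CPM in dry ovaries. None of these overlapped, and their part in the ovary values was not tested.

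In colon, where 2.59% of features were called, CFB had 30.8, 31.3 and 26 CPM in the lactating goats, against 5.38, 9.71 and 14.4 CPM in the dry goats (log2 difference 1.34, SE 0.33, adjusted p = 0.0486 with edgeR). F5 had 0.474, 0.493 and 0.42 CPM in the lactating goats, against 5.17, 9.14 and 3.17 CPM in the dry goats (-3.86, SE 0.75, adjusted p = 0.0151). CFB lost its call without each of the 6 goats (adjusted p from 0.063 to 0.164) and with RLE scaling (0.0509), and F5 without goats 2, 3, 6 or 64 (up to 0.118). T cell markers were 53.9 to 73.8 CPM in lactating and 17.1 to 26.5 CPM in dry colons, and endothelial markers 46.4 to 69.2 CPM in lactating and 20.3 to 27.1 CPM in dry colons. Macrophage, plasma cell, neutrophil and platelet markers were also higher in each lactating goat, and fibroblast markers were lower (147 to 164 CPM in lactating and 211 to 314 CPM in dry colons). Their part was not tested.

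In diaphragm, PLG had 5.57, 4.46 and 9.95 CPM in the lactating goats, against 1.05, 0.687 and 0.178 CPM in the dry goats (log2 difference 3.13, SE 0.68, adjusted p = 0.0299 with edgeR). It lost its call without goats 2, 6, 54, 64 or 73 (adjusted p up to 0.127), and the hepatocyte sum there was at most 1.79 CPM in lactating and 0.698 CPM in dry goats. In pineal gland, C6 had 3.01, 8.55 and 0.845 CPM in the lactating goats, against 31.1, 32 and 23.5 CPM in the dry goats (-2.55, SE 0.62, adjusted p = 0.0436). It lost its call without goats 2, 54, 64 or 73 (up to 0.166), and its 3 lactating libraries were closest to another tissue by whole profile, which leaves no lactating value without them, with 7.97% of features called. Endothelial markers summed to 21.2 to 85.5 CPM in lactating and 256 to 374 CPM in dry pineal glands, and their part was not tested.

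Averaged over the 32 tissues other than mammary gland, 1 member was higher in lactating goats and 3 were lower with limma on goat means, where 12.7% of 31306 features were called, 10.2% as higher and 2.54% as lower. TMM scaling turned the balance of all features from 3180 higher and 796 lower to 1433 higher and 1814 lower, and called 1 member higher and 4 lower. Without the libraries closest to another tissue, 1 member was higher and 3 were lower. VWF averaged 10.8, 18.6 and 12.2 CPM in lactating goats 2, 3 and 6, against 5.85, 5.29 and 5.87 CPM in dry goats 54, 64 and 73 (log2 difference 0.73, SE 0.16, adjusted p = 0.0176). C7 averaged 4.59, 6.36 and 5.70 CPM in the lactating goats, against 9.06, 11.9 and 8.65 CPM in the dry goats (-0.80, SE 0.19, adjusted p = 0.0238). These CPM, and those of PROS1 and F13A1 below, are plain means over the 32 tissues, whereas the fit used means of log2 CPM. They therefore do not give the fitted differences. Overlap is read from the plain means, in which neither VWF nor C7 overlapped between the states.

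PROS1 (-0.55, SE 0.12, adjusted p = 0.0182) and F13A1 (-0.51, SE 0.14, adjusted p = 0.04) were the other body-wide calls, and F13A1 had close but separate goat means (2.85, 2.55 and 3.2 CPM in lactating, against 3.23, 3.96 and 3.50 CPM in dry goats). PROS1 averaged 2.76, 1.68 and 1.88 CPM in the lactating goats, against 3.05, 2.91 and 2.75 CPM in the dry goats, so that goat 2 lay above the lowest dry goat. VWF lost its call without goats 54, 64 or 73 (adjusted p up to 0.0727), C7 without goats 54, 64 or 73 (up to 0.0985), PROS1 without goats 64 or 73 (up to 0.068), and F13A1 without each of the 6 goats (0.0574 to 0.135), with a prior count of 0.5 (0.0566) and without the low value filter (0.0657). Endothelial markers were higher body-wide in lactating goats for 3 of 8 genes, ENG, PECAM1 and FLT1, while KDR, TEK, TIE1, CDH5 and EGFL7 did not pass.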

How the data were processed

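The libraries were made from total RNA with a strand-specific kit, per the labels' protocols. STAR, StringTie and edgeR stand in the submitters' processing notes with neither version nor role, and the genome build and the use of strand in counting are not given in the sources used here. The authors deposited a table of estimated counts (expected counts) per gene and library, of which 36.9% of values above 0 were not whole within 1e-06, and these were rounded for the fits. The authors deposited a table of natural log offsets, joining library size and gene length, which served only as an alternative scaling. A table of tau values deposited by the authors holds a fraction for each gene, with no formula given, and was not used for any result; tau was computed here from tissue means of log2(CPM + 1). The deposited table of normalised levels and the lncRNA positions support no result.

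CPM was computed from each library's total. Within a tissue, and for liver against 8 single tissues, edgeR (version 4.0.16, R 4.3.3) fitted quasi-likelihood models with TMM scaling, filterByExpr with a minimum count of 10 and Benjamini-Hochberg adjustment at 0.05 over all features tested. Liver against the other 32 tissues, the body-wide difference and the mammary against body-wide difference used limma (version 3.58.1, eBayes with trend) on goat means of log2 CPM (prior count 2) and kept features averaging 1 CPM or more in a tissue. All tests are two-sided. A standard error from edgeR is the log2 difference divided by the square root of F. DESeq2 (version 1.42.0) was an alternative. Tables were made with Python 3.11.15, pandas 2.3.3, numpy 2.4.6 and scipy 1.17.1 and figures with matplotlib 3.10.9. The fits were tested on simulated data.

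Tissues share their goats by label: across features, the deviation of a goat's liver from the liver mean correlated with the deviation of that goat's mean over its other tissues by 0.079 to 0.273, and the own goat was the best match for 6 of 6. Lactating and dry goats share no number, so the states cannot be paired. With the goat as a replicate block, liver against the other 32 tissues called 36 members, as without it. Liver against 8 tissues called 279 of the tests on members with the block and 282 without it.

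Members, marker lists and tests were chosen with earlier results of these data known, C9 in mammary gland included. Every member in the table is named. Full statistics are given for members called between states and, per role, for up to 3 of the largest and 3 of the smallest liver differences; of the list of other pathway genes, those with the smallest p. Gene names and overlaps were taken from the RefSeq table of assembly ARS1.2, in which all 41 members matched, 3 of them (CFI, MASP1 and F9) overlap another gene and 8 have a named lncRNA partner in the count table, so their reads cannot be told apart with certainty. Alternatives were another scaling, no low count filter, another prior count, leaving out each goat and leaving out libraries closest to another tissue; the last of these for the body-wide tests, and leaving out MASP2 or the pineal gland, were chosen after seeing the data.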

Additional observations from a re-analysis of the deposited data

Results flagged for a closer look

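In 94 groups of 6 libraries, a gene's highest or lowest library was set against the gap to its neighbour, and 6 groups held a library that stood far from the others. Chance alone gives about 1 in 20 such groups. In liver, goat 3 was low for C5 (157 CPM, with the next at 418 CPM) and for CFI (164 CPM, with the next at 245 CPM), and its hepatocyte marker sum was also the lowest of the 6 livers, at 5059 CPM. Goat 6 was high in liver for FGB (1.48e+03 CPM, with the next at 882 CPM) and FGG (1.66e+03 CPM, with the next at 1012 CPM). F8 stood at 31.7 CPM in the mandibular lymph node of goat 54, where the next library had 10.9 CPM. VWF stood at 124 CPM in the subcutaneous fat of goat 3, where the next library had 41.5 CPM.

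The C9 difference between lactating and dry goats was larger in the mammary gland than the mean over the other 32 tissues, by 5.71 on the log2 scale, as the limma test of that difference showed (adjusted p = 0.0141). The call was lost without each of the 6 goats (adjusted p from 0.0578 to 0.235). Over the other 32 tissues the C9 difference was -0.04 (SE 0.10 with limma), so the contrast largely restates the difference within the gland.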

How the results depend on the processing

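With 3 goats per state, counts of called genes depend on single goats and on the filter. Leaving out each goat gave 1 to 2 called members in mammary gland (2 with all goats) and 37 to 193 called features (192), 45 to 254 called features in liver (243), 10 to 18 called members and 4174 to 9691 called features in the 8 tissues with a called member (18 and 8204), 0 to 4 called members (4) and 1456 to 3278 features (3976) body-wide, and 0 members (1) and 1 to 4 features (39) for the mammary against body-wide difference. DESeq2 called 4 members and 729 features in mammary gland and 578 features in liver. Without the low count filter there were 630 features in mammary gland, 980 in liver, and 54 members and 24135 features in the other 31 tissues (18 and 10556). A prior count of 0.5 gave 90 features for the mammary against body-wide difference. No called result changed direction under the alternatives tried. CFP, not called in liver against the other tissues (0.14), turned to -0.11 without goat 3 and -0.01 without goat 64.

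Without each goat in turn, 30 genes peaked in liver and 36 to 37 were called against the other 32 tissues, and the gain was F3, lower in liver without goat 2 (-0.88, adjusted p = 0.0353). With the goat as a replicate block, the counts were 36 members against the other 32 tissues and 279 member tests against the 8 tissues, and it moved no count by over 1.5 times. Among alternatives for the genes named, 70 lost a call and 604 kept their side of the threshold. Members gained a call body-wide too: F5 with TMM scaling and with a prior count of 0.5, CFB with that prior count and without goat 6, CFD without goat 2 and C3 without goat 3 (adjusted p from 0.0151 to 0.0486). Libraries with small totals cannot show levels below about 2 CPM.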

Other observations

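The table also holds lncRNAs named after members, whose levels between tissues and states were not tested. C1QC-AS1, named as antisense to a C1q chain gene, averaged 293 CPM in liver and 2048 CPM in spleen. C5-OT1, named as overlapping C5, peaked in mammary gland, at 18.3 CPM in lactating and 3.25 CPM in dry glands, and C6-OT1 peaked in pineal gland at 27.8 CPM, the tissue with the highest C6 level outside liver. C3-IT2, named after C3, peaked in liver at 19.5 CPM, whereas C4BPA-IT1 peaked in brainstem at 41.4 CPM and had 11.8 CPM in liver. How the counting assigned reads that a gene and its partner share is not known, so these pairs cannot be told apart with certainty.

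Of the other coagulation genes, SERPIND1, which encodes heparin cofactor II, an inhibitor of thrombin, was called between states in 12 of the 31 tissues other than liver and mammary gland. It was higher in lactating goats in adrenal cortex (log2 difference 2.15, adjusted p = 0.00383 with edgeR), colon, heart (2.50, adjusted p = 0.00067), kidney medulla, lung, masseter and spleen, and lower in adenohypophysis, brainstem, cerebellar hemisphere (-1.49, adjusted p = 0.00331), neurohypophysis and pineal gland. In the RefSeq annotation SERPIND1 lies within another gene, PI4KA, and their reads cannot be told apart. Over the 31 tissues, 17 of 449 tests on coagulation genes outside the member list were higher in lactating goats and 13 were lower. SERPIND1 alone gave 7 of the higher and 5 of the lower. Of 295 tests on complement genes outside the member list, 1 was higher and 1 lower, where 1.94% of all tests were called. In ovary, where 11.7% of features were called, GP1BA, a subunit of the platelet receptor for von Willebrand factor, averaged 12.9 CPM in lactating and 2.85 CPM in dry goats (adjusted p = 0.0216 with edgeR). In pineal gland, where 7.97% were called, it averaged 5.86 CPM in lactating and 18.5 CPM in dry goats (adjusted p = 0.0314 with edgeR). The 3 lactating pineal libraries were closest to another tissue by whole profile, which limits the SERPIND1 call there too. Platelet markers summed to 23.7 to 28.8 CPM in lactating and 11.9 to 18.4 CPM in dry ovaries. In pineal gland they summed to 7.24 to 13.6 CPM in lactating and 126 to 192 CPM in dry goats. Their part was not tested. Body-wide, the C3a receptor gene C3AR1 (log2 difference 0.62, adjusted p = 0.0154 with limma) and VSIG4, a C3b receptor of macrophages (0.51, adjusted p = 0.0314), were higher in lactating goats, beside 3 of 7 macrophage markers, whose part was not tested. VSIG4 is itself one of these markers.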
